A study of Mus musculus with 4 samples.

Results

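The genes described here code for the extracellular matrix and its receptors: collagens, laminins, integrin subunits, the secreted ADAMTS proteases with their ADAMTS-like relatives, and Aebp1, a secreted protein that binds collagen. They were chosen by gene symbol, among probe sets annotated with exactly 1 symbol, and for a gene with several probe sets the brightest was used. The rule found 108 of the 22180 genes on the array that have such a probe set, namely 44 collagens, 10 laminins, 30 genes with an integrin symbol, 23 ADAMTS and ADAMTS-like genes, and Aebp1. Of the 30 integrin symbols, 4 belong to proteins that are no integrin subunit: Itgb1bp1 and Itgb1bp2, whose products bind the tail of the β1 subunit, Itgb3bp, a centromere protein gene, and the integrin-like Itgbl1.

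There were 2 samples of siNF45 cells and 2 of siNTC cells, 1 array each. All were Beta-TC-6, a line of mouse insulin-producing beta cells, grown with 25 mM glucose and 15% serum. The siNF45 cells were transfected with a mixture of RNA duplexes against NF45, a double-stranded RNA-binding protein encoded by Ilf2, and the siNTC cells with a negative control siRNA by the same lipid reagent. Whether replicates were transfected separately is not stated in the labels, so the p-values rest on a spread that may be purely technical. The comparison asks whether NF45 depletion alters the messenger RNA of these genes in a beta cell line.

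Collagens are triple-helical proteins that form fibrils or sheets, and laminins are proteins of 3 chains that, with type IV collagen, build basement membranes. Integrins are receptors made of an α and a β subunit that hold cells to matrix and signal through adaptor proteins on their inner tails, while ADAMTS proteases cut and process matrix proteins. In the islet, the basement membrane is known to be made largely by blood vessel cells, and beta cells bind it through β1 integrins.

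Ilf2 read 3.67 and 3.77 on the siNF45 arrays, against 5.79 and 5.98 on the siNTC arrays, on the log2 scale of all signals here. It fell by 2.17 (limma SE 0.13, adjusted p = 0.020), so the labels match the target. All 9 measured beta cell markers were above background and none differed at an unadjusted p under 0.05. Of the markers of other cells, 0 of 8 fibroblast or stellate, 0 of 4 endothelial and 0 of 3 acinar genes reached background, along with 1 of 4 immune genes (Cd68, 1.82 over the 4 arrays) and 1 of 3 duct genes (Krt7, 3.60). Krt7, a keratin, read 3.91 and 3.96 in siNF45, against 3.41 and 3.13 in siNTC, a difference of 0.67 (limma adjusted p = 0.132), and its part in the results below was not tested. Each array's median over the tested genes was 3.72 and 3.60 for siNF45, against 3.82 and 3.76 for siNTC, and centring on these medians adds 0.13 to every difference given below.

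Most of the matrix and adhesion genes were not detected above background. Background was set at the median of all 41345 probe sets, a signal of 1.65, because no detection call was used here. By that level 30 of the 108 genes were above background and 78 were not, beside 11742 of all 22180 genes above it. As a second yardstick, 95% of the 1108 probe sets of olfactory receptor genes, which a beta cell line is taken not to express, lay below 1.76. That signal was reached by 21 of the 108, beside 11069 of all 22180 genes. The 9 genes between both levels were Adamts4, Adamts14, Adamts16, Col1a2, Col5a1, Col5a3, Col6a3, Col9a2 and Itga1, and their signals cannot be told from those of olfactory receptors. Just inside the background level was Col6a3 at 1.66, and just outside it were Adamts6 at 1.64 and Col7a1 at 1.64. Signals of different probe sets are not amounts of RNA on 1 scale, so they are not ranked between genes.

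**Figure D1:**
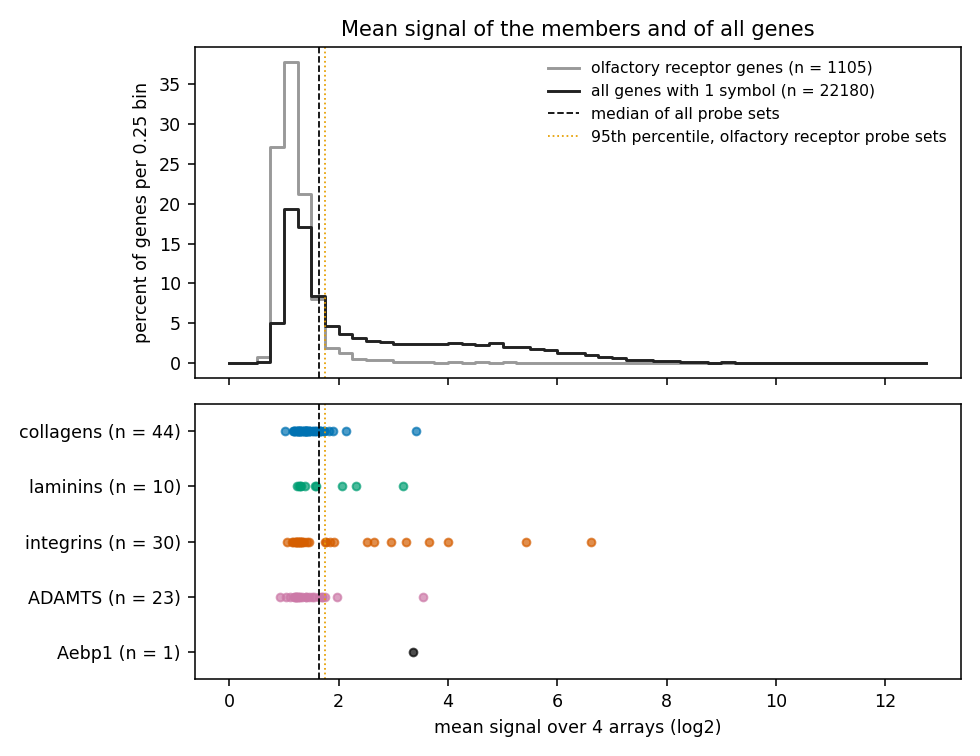
Upper panel: share of genes (percent per bin of 0.25) by mean signal over the 4 arrays (log2), for olfactory receptor genes and for all 22180 genes. Lower panel: 1 point per gene for the 108 matrix and adhesion genes, by family; dashed and dotted lines mark 1.65 and 1.76, and 78 of the 108 points lie left of the dashed line.

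Among the 30 genes above background, 0 passed in limma after Benjamini-Hochberg adjustment over all 11742 tested genes, higher or lower, where 0.00852% of all tested genes passed as higher and 0.0766% as lower. At an unadjusted p under 0.05, 3 of the 30 were higher in siNF45, which is 10% against 4.02% of all tested genes, and 6 were lower, which is 20% against 13.2%. The 3 higher genes, Adamts16, Col6a3 and Itgb8, had siNTC means below background and were tested only through their siNF45 signal. The filter thus had a part in that share, and with the olfactory receptor filter the count was 1 of 21, beside 3.94%. Among the 6 lower genes the same holds, in the other direction, for Itga4. Both siNF45 arrays lay above both siNTC arrays for 4 genes, or 13.3% against 15.2% of all tested genes, and below them for 8, or 26.7% against 32.6%. The filter had a part here too, through Adamts16, Col6a3 and Itgb8 above and Itga4 and Col1a2 below. These counts are near the background shares and are no result about the set. The difference siNF45 minus siNTC was below 0 for 18 of the 30, beside 61.3% of all tested genes, and its median was -0.04, beside -0.07 for all tested genes. It was 0.09, beside 0.07 for all genes, after centring the arrays. The differences that stood out were those of Aebp1 and Adamts17, which came 26th and 45th of 11742 by p.

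**Figure D2:**
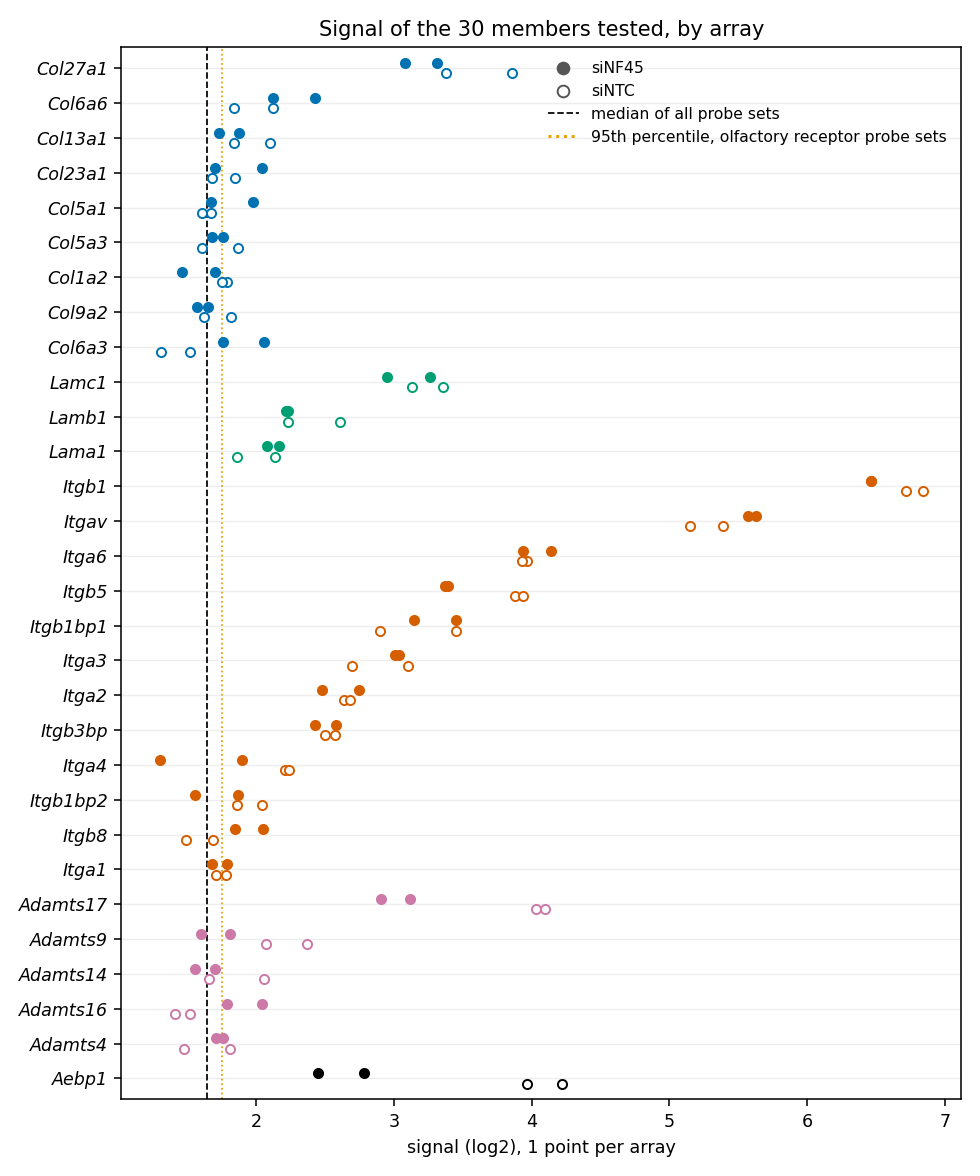
Signal (log2) of the 30 genes above background on each array, with siNF45 as filled points above siNTC as open points, coloured by family. Dashed line, background level of 1.65; dotted line, olfactory receptor level of 1.76. Aebp1, Adamts17, Itgb5 and Itgb1 show filled points left of the open ones by more than either pair is apart.

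Aebp1 encodes a secreted carboxypeptidase-like protein that binds collagen fibrils and is best known from connective tissue. Its signal was 2.78 and 2.45 on the siNF45 arrays, against 4.22 and 3.97 on the siNTC arrays. All 4 values were above background, and the siNF45 values lay more than 1 log2 unit below both siNTC values. The means were 2.62 ± 0.23 in siNF45 and 4.10 ± 0.18 in siNTC (SD, n = 2 each), a difference of -1.48 (SE 0.17, 95% interval -1.90 to -1.06), which is 2.79-fold lower in siNF45. With a limma adjusted p of 0.071 it did not pass in the fit as designed. It passed with 4 other settings, at adjusted p of 0.009 after centring, 0.021 with a trend in eBayes, 0.033 after quantile normalization and 0.041 with a filter at the 70th percentile. It did not pass without a filter (0.081), with the olfactory receptor filter (0.070), robust eBayes (0.066) or a replicate block (0.258). All 8 fibroblast and stellate markers were below background, with mean signals over the 4 arrays of 1.01 to 1.58, so their sums, 9.95 and 10.38 in siNF45 and 9.60 and 10.75 in siNTC, could not show a shift in such cells. Since these are bulk samples, fewer cells of a type and less RNA per cell cannot be told apart.

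The same pattern was seen for Adamts17, a secreted metalloprotease whose loss in humans causes short stature and eye lens defects. It read 2.91 and 3.12 in siNF45, against 4.03 and 4.10 in siNTC. The groups were well separated and all 4 values were above background. Means were 3.02 ± 0.15 in siNF45 and 4.07 ± 0.05 in siNTC (SD, n = 2 each). The difference of -1.05 (SE 0.13, 95% interval -1.38 to -0.72), or 2.07-fold lower, had a limma adjusted p of 0.072. It passed at 0.033 with a trend, 0.039 after centring and 0.041 with the 70th percentile filter. After quantile normalization Adamts17 stood at -0.97 (adjusted p = 0.062). Nor did it pass without a filter (0.085), with the olfactory receptor filter (0.070), robust eBayes (0.070) or the replicate block (0.258).

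Itgb5, the β5 integrin subunit that pairs with αv to bind vitronectin, had the next smallest p. Its signals were 3.39 and 3.37 in siNF45, against 3.88 and 3.94 in siNTC. Replicates agreed within 0.06 in both groups, and the groups did not overlap. The difference was -0.53 (SE 0.12, 95% interval -0.82 to -0.24), 1.44-fold lower in siNF45, and did not pass (limma adjusted p = 0.133). It ranged from -0.56 to -0.50 when each array was left out in turn, and was -0.40 after centring.

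The promoter windows of these 3 genes, which had the smallest p-values of the 30, show their base composition and common promoter motifs. They come from RefSeq on build GRCm38.p6, run from 250 bases before the gene start to 50 after it, and are all on the plus strand. The windows are chr11:5861616-5861915 for Aebp1, chr7:66839485-66839784 for Adamts17 and chr16:33829415-33829714 for Itgb5. Capitals mark matches on either strand to 6 motifs. These were the TATA box, searched as TATAAA, the GC box, searched as GGGCGG, the E-box, searched as CACGTG, the core of the cyclic AMP response element, searched as TGACG, the AP-1 site, searched as TGANTCA, and the CCAAT box.
Aebp1: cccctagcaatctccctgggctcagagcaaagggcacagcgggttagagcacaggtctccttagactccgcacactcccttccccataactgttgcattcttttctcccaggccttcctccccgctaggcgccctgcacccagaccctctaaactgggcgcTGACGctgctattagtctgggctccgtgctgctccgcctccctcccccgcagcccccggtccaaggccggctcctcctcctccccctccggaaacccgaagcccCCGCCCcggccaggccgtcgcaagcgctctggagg
Adamts17: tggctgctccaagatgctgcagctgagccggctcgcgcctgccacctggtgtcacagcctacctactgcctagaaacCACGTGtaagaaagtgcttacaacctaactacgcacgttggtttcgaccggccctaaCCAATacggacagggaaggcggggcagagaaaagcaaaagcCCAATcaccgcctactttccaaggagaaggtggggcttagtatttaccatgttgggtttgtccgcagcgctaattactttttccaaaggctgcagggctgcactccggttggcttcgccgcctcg
Itgb5: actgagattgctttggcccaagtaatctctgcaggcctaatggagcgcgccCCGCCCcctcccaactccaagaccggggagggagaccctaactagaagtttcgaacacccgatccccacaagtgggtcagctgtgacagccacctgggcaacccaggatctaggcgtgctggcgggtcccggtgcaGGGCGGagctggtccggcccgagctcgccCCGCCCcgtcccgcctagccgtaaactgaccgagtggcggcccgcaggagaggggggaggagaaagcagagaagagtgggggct
None of the 3 windows holds TATAAA, which 13.6% of all 32851 windows of this length hold, or TGANTCA (7.81%). GGGCGG occurs once in the Aebp1 window, 3 times in that of Itgb5 and not in that of Adamts17, and 35.7% of all windows hold it. Adamts17 has 1 CACGTG (7.15% of all windows) and 2 CCAAT (37.4%), and Aebp1 has 1 TGACG (20.8%). The windows of Aebp1 and Itgb5 are GC-rich at 66.3% and 65.7%, and that of Adamts17 has 55.7%, against a median of 52.7% over all windows. No 2 of the marked matches overlap, and a match to letters is a description, not a binding site.

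Of the integrin subunits, 6 α and 3 β genes were above background. Itgb1 encodes the β1 subunit shared by most matrix-binding integrins. It read 6.46 on both siNF45 arrays, against 6.72 and 6.84 on the siNTC arrays. Both siNF45 values were below both siNTC values, with a difference of -0.32 (SE 0.12, limma adjusted p = 0.265) that was -0.19 after centring. Itgav, the αv partner of β1, β3, β5, β6 and β8, read 5.57 and 5.63 in siNF45, against 5.39 and 5.15 in siNTC. Here the siNF45 arrays were the higher ones, by 0.33 (SE 0.14, limma adjusted p = 0.299). A second Itgav probe set was below background at 1.19.

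Itgb8, whose product with αv activates latent transforming growth factor β, read 2.05 and 1.85 in siNF45, against 1.49 and 1.69 in siNTC. The siNF45 values were above the olfactory receptor level and the siNTC values were not. With a siNTC mean of 1.59, the gene reached background through siNF45 and had to be higher there to be tested. Its difference was 0.36 (SE 0.14, limma adjusted p = 0.282). The measured partners of αv thus stood at -0.53 for Itgb5, -0.32 for Itgb1 and 0.36 for Itgb8 beside 0.33 for Itgav itself, while Itgb3 and Itgb6 were below background at 1.37 and 1.42. No pairwise test between these genes was made, and none of the 4 differences passed.

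Itga4, the α4 subunit that binds fibronectin and the vascular adhesion protein VCAM1, read 1.90 and 1.30 in siNF45, against 2.21 and 2.24 in siNTC. The siNF45 replicates were 0.60 apart, and the second was below background. With a siNF45 mean of 1.60, also below background, the gene was tested only through siNTC and had to be lower in siNF45. The difference was -0.63 (SE 0.21, limma adjusted p = 0.234), and -0.33 without siNF45 replicate 2.

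The laminin and collagen receptors had smaller differences. Itga6, a laminin receptor subunit, read 3.94 and 4.14 in siNF45, against 3.97 and 3.93 in siNTC. Itga3, also a laminin receptor subunit, read 3.01 and 3.04 in siNF45, against 2.70 and 3.10 in siNTC. The groups overlapped for both, with differences of 0.09 for Itga6 (95% interval -0.23 to 0.41) and 0.13 for Itga3 (-0.29 to 0.54). Itga2, part of a collagen receptor, read 2.75 and 2.48 in siNF45, against 2.64 and 2.68 in siNTC, a difference of -0.05 (-0.39 to 0.30). Itga1, of the other collagen receptor, read 1.79 and 1.68 in siNF45, against 1.71 and 1.78 in siNTC, a difference of -0.01 (-0.31 to 0.29). The 4 intervals span 0 but reach from -0.39 to 0.54, so the groups were not shown to be alike in these genes.

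The 3 measured genes that carry an Itgb symbol without coding for a subunit overlapped between groups as well. The β1 tail-binding Itgb1bp1 differed by 0.13 (limma adjusted p = 0.819), and its second probe set was below background at 1.30. Itgb1bp2, known from muscle, differed by -0.24 (adjusted p = 0.494) and Itgb3bp by -0.03 (adjusted p = 0.935). The leukocyte integrin genes Itgal, Itgam, Itgax, Itgad, Itgae, Itgb2 and Itgb7, and the platelet gene Itga2b, were all below background.

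Of the 10 laminin genes, Lama1, Lamb1 and Lamc1 were above background, which are the α1, β1 and γ1 chains that form 1 laminin trimer of early basement membranes. Lamc1 read 2.95 and 3.26 in siNF45, against 3.36 and 3.13 in siNTC. Lamb1 read 2.23 and 2.22 in siNF45, against 2.23 and 2.61 in siNTC. Lama1 read 2.17 and 2.08 in siNF45, against 2.14 and 1.86 in siNTC. The groups overlapped or touched for all 3. Differences were -0.14 for Lamc1 (95% interval -0.54 to 0.26), -0.20 for Lamb1 (-0.59 to 0.20) and 0.13 for Lama1 (-0.23 to 0.48), with limma adjusted p of 0.592 to 0.712. Lama4 and Lama5, the α chains known from vessel and islet basement membranes, were below background at 1.58 and 1.56.

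**Figure D3:**
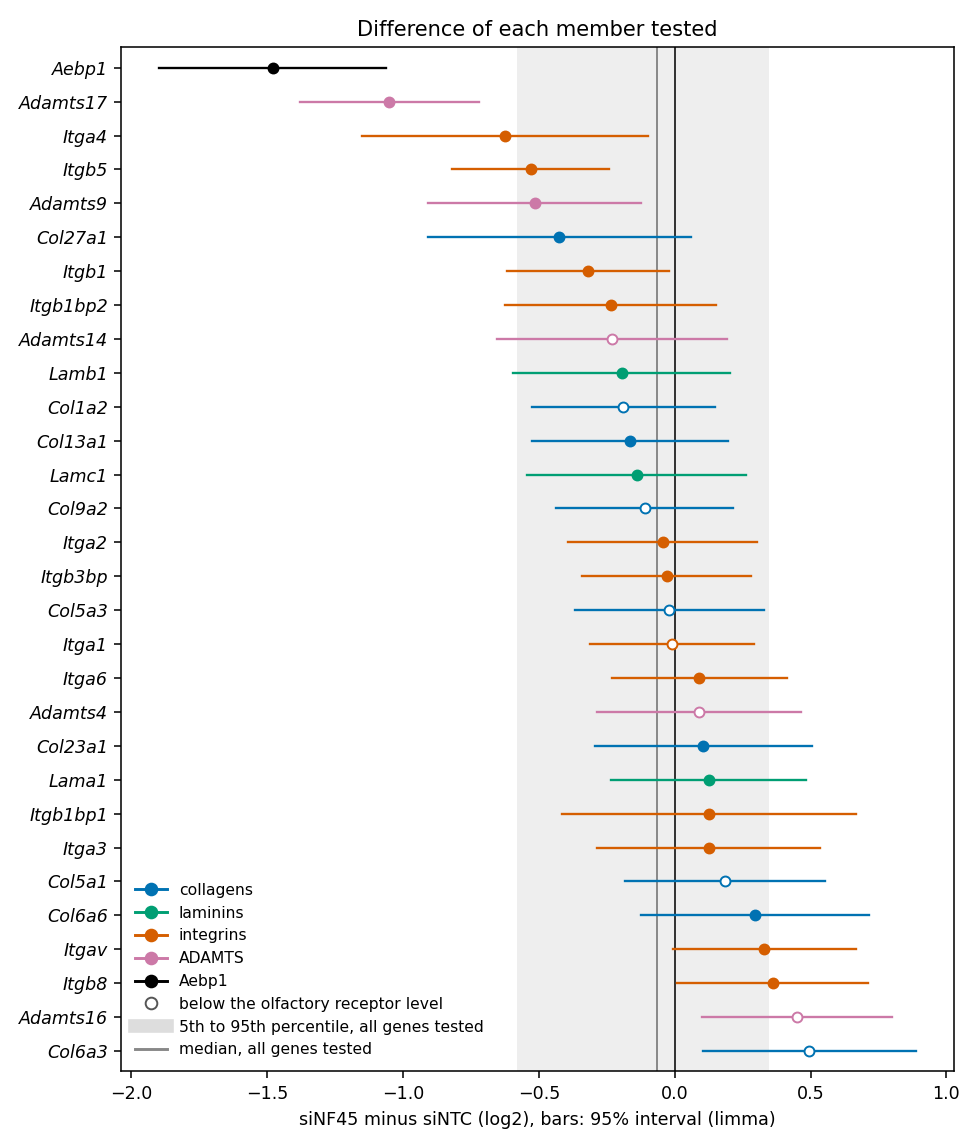
Difference siNF45 minus siNTC (log2) of each of the 30 genes above background, with limma 95% intervals, coloured by family; open points are genes under the olfactory receptor level. The grey band spans the 5th to 95th percentile of all tested genes and the grey line is their median of -0.07. Aebp1 and Adamts17 lie left of the band with intervals that do not reach it.

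Only 9 of 44 collagen genes were above background, and 4 of them reached the olfactory receptor level. Both chains of the main basement membrane collagen, Col4a1 at 1.55 and Col4a2 at 1.30, were below background, as were the fibril genes Col1a1 at 1.59 and Col3a1 at 1.41. By class, 4 of 11 fibrillar collagens were above background, 0 of 9 network collagens, 1 of 9 fibril-associated, 2 of 4 transmembrane, 0 of 2 multiplexins and 2 of 9 others.

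Col27a1, a fibrillar collagen best known from cartilage, read 3.08 and 3.31 in siNF45, against 3.86 and 3.38 in siNTC. The groups came within 0.07 of each other without overlapping. The difference was -0.43 (SE 0.20, limma adjusted p = 0.339), with a range of -0.67 to -0.19 when 1 array was left out. Col6a3, a chain of the type VI microfibrils, read 2.06 and 1.76 in siNF45, against 1.31 and 1.52 in siNTC. It differed by 0.50 (SE 0.16, limma adjusted p = 0.218) but was above background in siNF45 alone, so it had to be higher there to be tested. A further type VI gene, Col6a6, read 2.43 and 2.12 in siNF45, against 1.84 and 2.12 in siNTC, with a difference of 0.30 (adjusted p = 0.431).

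The transmembrane collagens Col13a1 and Col23a1 had overlapping groups, with differences of -0.17 and 0.11 (limma adjusted p = 0.616 and 0.791). The fibrillar Col5a1 and Col5a3 and the fibril-associated Col9a2 overlapped too, at 0.19, -0.02 and -0.11. Col5a1 had a siNTC mean of 1.64 and Col9a2 a siNF45 mean of 1.61, both below background. To be tested, Col5a1 therefore had to be higher in siNF45 and Col9a2 lower. Col1a2 had both siNF45 arrays below both siNTC arrays, at 1.46 and 1.70 against 1.79 and 1.75, by -0.19 (adjusted p = 0.528). With a siNF45 mean of 1.58, below background, Col1a2 was tested only through siNTC and had to be lower in siNF45. Another Col1a2 probe set was below background at 1.10. The median difference of the 9 collagens was -0.02 and turned to 0.11 after centring and to 0.02 without siNTC replicate 1.

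Besides Adamts17, 4 ADAMTS genes were above background. Adamts9, a protease of the proteoglycan versican, read 1.81 and 1.60 in siNF45, against 2.37 and 2.07 in siNTC. The siNF45 values lay on either side of background and the siNTC values above it, with a difference of -0.52 (SE 0.16, limma adjusted p = 0.207). Adamts16 read 1.79 and 2.04 in siNF45, against 1.52 and 1.41 in siNTC, which is the opposite order, and was above background in siNF45 alone. It differed by 0.45 (SE 0.14, limma adjusted p = 0.212). Adamts14, which trims procollagen, differed by -0.23 with overlapping groups, and its other probe set was below background at 1.09. With a siNF45 mean of 1.63, below background, Adamts14 had to be lower in siNF45 to be tested. Adamts4, known for cutting aggrecan in cartilage, differed by 0.09 with overlapping groups. None of the 5 measured ADAMTS-like genes was above background.

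The 78 genes below background had mean signals from 0.93 to 1.64. When all 22180 genes were tested without a filter, 0 of these 78 passed, beside 0.0406% of all genes. At an unadjusted p under 0.05 there was 1 of the 78, beside 4.22% of all genes higher and 8.27% lower. The shares over all genes include those above background, so they are not a like measure for the 78. The 1 gene was the laminin chain Lamc3, which read 1.44 and 1.38 in siNF45, against 0.97 and 1.17 in siNTC. All 4 values are below background, so the difference is not a measured change in level. Differences of the 78 ranged from -0.28 to 0.34.

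Genes that work with collagens and integrins were read from 5 further lists. The collagen biosynthesis list holds the enzymes and chaperones that modify and fold procollagen in the endoplasmic reticulum and crosslink it outside. Of its 18 tested genes, 0 passed, 7 were lower in siNF45 at an unadjusted p under 0.05 and 0 higher, beside 13.2% lower and 4.02% higher of all tested genes, and the median was -0.23. Plod2, a lysyl hydroxylase for collagen crosslinks, read 3.24 and 3.06 in siNF45, against 3.98 and 4.04 in siNTC, a difference of -0.86 (SE 0.13, limma adjusted p = 0.079). P3h4, a partner of the lysyl hydroxylase complex, read 2.63 and 2.71 in siNF45, against 3.43 and 3.65 in siNTC (-0.87, adjusted p = 0.085). The groups were separated by more than the replicate spread in both. Prolyl hydroxylase P3h1 stood at -0.67 (adjusted p = 0.132) and the galactosyltransferase Colgalt1 at -0.47 (adjusted p = 0.158). Both siNF45 arrays were below both siNTC arrays in these too, as in 32.6% of all tested genes. The genes named here were picked for the smallest p of the list, and 35 of the 44 collagen genes themselves were below background. After centring, Plod2 passed at -0.73 (limma adjusted p = 0.043), and it also passed with the 70th percentile filter (0.049). It did not pass with a trend (0.054), after quantile normalization (0.062) or without a filter (0.099).

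Integrin adaptors link the β subunit tails to actin and to signalling. Of 19 tested genes 0 passed. At an unadjusted p under 0.05, 8 were lower in siNF45 and 0 higher, beside the same background shares, and their median was -0.20. The tensins Tns2 and Tns3, which bind integrin tails, differed by -1.05 and -0.86 (limma adjusted p = 0.130 and 0.137). Tns2 had a siNF45 mean of 1.61, below background, so it was tested only through siNTC, had to be lower in siNF45 and has no measured level there. Rsu1, of the integrin-linked kinase complex, read 5.59 and 5.72 in siNF45, against 6.52 and 6.20 in siNTC, a difference of -0.71 (adjusted p = 0.132). The actin crosslinker Actn1 read 5.90 and 5.99 in siNF45, against 6.52 and 6.40 in siNTC, a difference of -0.52 (adjusted p = 0.146). All 4 genes had separated groups, with the siNF45 arrays lower, but they were picked for the smallest p of the list. That order was found in 32.6% of all tested genes.

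Among 10 tested matrix glycoproteins and proteoglycans, Reln, a secreted protein of neuronal migration, fell by 1.87 (SE 0.13, limma adjusted p = 0.030). It was the only gene of the 5 lists that passed in the fit as designed. At an unadjusted p under 0.05, 3 of the 10 were lower in siNF45 and 1 higher, beside 13.2% and 4.02% of all tested genes. Fbln5, an elastic fibre protein, differed by -0.56 (adjusted p = 0.133) and the basement membrane proteoglycan Agrn by -0.30 (adjusted p = 0.279). Npnt, a ligand of the integrin with the α8 subunit, read 4.60 and 3.94 in siNF45, against 3.82 and 3.42 in siNTC. Its siNF45 values were the higher ones, by 0.65 (SE 0.26, adjusted p = 0.281), while Itga8 was below background at 1.22.

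In the list of other matrix receptors, 3 of 17 tested genes were higher and 1 lower at an unadjusted p under 0.05, beside 4.02% and 13.2% of all tested genes, and 0 passed. The heparan sulfate proteoglycan Sdc3 read 3.37 and 3.04 in siNF45, against 4.64 and 4.36 in siNTC, a difference of -1.30 (SE 0.17, limma adjusted p = 0.077). That is a 2.45-fold lower signal with well separated groups. The gene passed at limma adjusted p of 0.017 after centring and 0.029 with a trend. It also passed at 0.040 after quantile normalization and 0.0465 with the 70th percentile filter. Sdc3 did not pass without a filter (0.092), with the olfactory receptor filter (0.076) or with robust eBayes (0.074). Gpc4, also a heparan sulfate proteoglycan, had the opposite order at 4.48 and 4.63 in siNF45, against 3.53 and 3.96 in siNTC (0.81, adjusted p = 0.132). The integrin-associated tetraspanins Cd81 and Cd9 differed by 0.37 and 0.38 (adjusted p = 0.223 and 0.259). Of 15 tested matrix proteases and inhibitors, 1 was lower at an unadjusted p under 0.05, beside the same 13.2%, the membrane-bound Mmp24 at -0.70 (adjusted p = 0.207), followed by Adam17 at -0.24, Adam9 at 0.20 and the inhibitor Timp2 at -0.19.

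**Figure D4:**
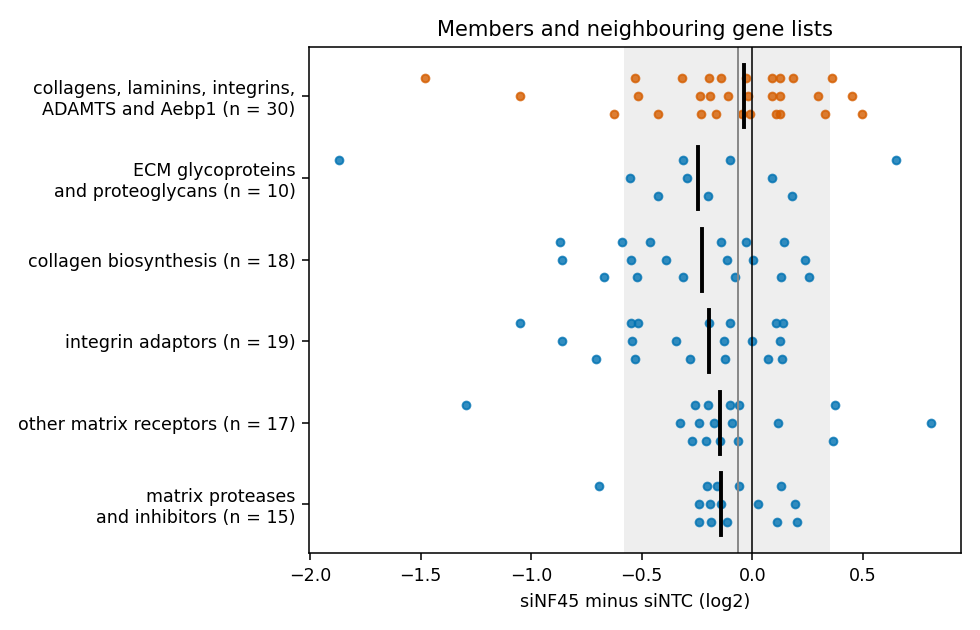
Difference siNF45 minus siNTC (log2) of each tested gene, 1 point per gene, for the 30 matrix and adhesion genes and for 5 further lists; vertical offsets only separate points. Black bars are list medians, from -0.25 to -0.04; the grey band and line are the 5th to 95th percentile and the median of all tested genes.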

How the data were processed

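Total RNA was hybridised to Affymetrix Mouse Gene 2.1 ST arrays. The deposited table gives each probe set 1 processed log2 value per array, which the authors made with Transcriptome Analysis Console, per the submitters' processing notes. Software version, summarisation, background correction and log base were not given in the sources used here. Values ran from 0.12 to 12.21 and were taken as log2, on which all folds rest. They are uncentred, and direction follows the sample labels. Array medians over all probe sets were 1.66 and 1.66 for siNF45 and 1.64 and 1.64 for siNTC. Arrays carry no read depth, and their number limits the precision.

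The platform annotation gave 1 gene symbol to 23521 of 41345 probe sets and several to 1814, and 16010 were unnamed here. All 108 genes of the set matched a RefSeq gene number with the same symbol, and 7 had several probe sets. Genes whose brightest probe set averaged at least 1.65 were tested, which left 11742. limma 3.58.1 in R 4.3.3 was run (lmFit and eBayes, no covariate, 2 residual and 3.69 prior degrees of freedom), with Benjamini-Hochberg adjustment over all tested genes at 0.05, and was tested on simulated data. Differences are siNF45 minus siNTC. An exact permutation test of 2 arrays against 2 cannot go below p = 0.333, which it gave for Ilf2.

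The genes and lists were chosen with earlier results of these data known, so no list test was made. The text names all genes above background, the 4 genes of each further list with the smallest p, and some genes below background that were chosen after their values were seen. Alternatives were other signal filters, quantile normalization, centring, eBayes with a trend, robust eBayes, a replicate block, averaged probe sets, another threshold and leaving out each array. Promoter windows were taken from RefSeq for the 3 genes with the smallest p; 75 of the 108 genes had one.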

Additional observations from a re-analysis of the deposited data

How the results depend on the processing

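The share of all tested genes that passed, higher or lower, was 0.0852% as designed. It was 1.09% with the 70th percentile filter, 1.46% after centring, 1.48% with a trend in eBayes and 0.528% after quantile normalization. The count of matrix and adhesion genes passing as lower was 0 as designed. With the 70th percentile filter, centring or a trend the count was 2 (Aebp1 and Adamts17). The same 2 passed at a threshold of 0.10, for which the share of all tested genes is not given here. After quantile normalization the count was 1 (Aebp1). It was 0 without each array (range 0 to 0), where a group's single array borrows its spread from the other arrays. Genes higher at an unadjusted p under 0.05, 3 as designed, numbered 5 without a filter and after centring, 1 with the 70th percentile or olfactory receptor filter, 1 with the replicate block, and 0 to 1 without 1 array. Those lower numbered 6 of 30 as designed, beside 13.2% of all tested genes, and 5 of 30 after centring, beside 7.4%. They were 4 of 10 with the 70th percentile filter, beside 15.7%, and 6 of 21 with the olfactory receptor filter, beside 13.7%. Of 50 named genes besides Ilf2, 38 kept their direction in every alternative run.

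The median of the set was -0.23 with the 70th percentile filter, -0.14 with the olfactory receptor filter and 0.0925 after centring, where that of all genes was 0.065. Collagens had -0.43 (70th percentile) and 0.11 (centring), integrins 0.11 under both, laminins 0.06 without a filter, and ADAMTS genes 0.04 without a filter, -1.05 with the 70th percentile filter and -0.78 with the olfactory receptor filter. Fewer or more genes enter these medians when the filter changes. Without 1 array the medians ranged from -0.07 to 0.02 for collagens and from -0.37 to -0.08 for ADAMTS genes.

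Replicate numbers recur across groups but were not treated as pairs, since deviations of same-numbered arrays correlated at 0.00615 over genes. With the replicate block, 0 genes of the array passed and Ilf2 stood at -2.17 with adjusted p = 0.258. Without 1 array Ilf2 ranged from -2.26 to -2.07 (adjusted p = 0.307 to 0.471).

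Small differences turned sign. After quantile normalization Itga2 stood at 0.005 and Itgb3bp at 0.015, and after centring Col5a3 at 0.11, Col9a2 at 0.02, Itga2 at 0.085, Itgb3bp at 0.10 and Itga1 at 0.12. With probe sets averaged, Itgb1bp1 stood at -0.025. Without 1 array the ranges crossed 0 for Lamc1 (-0.295 to 0.015), Col23a1 (-0.065 to 0.275), Col5a3 (-0.15 to 0.11), Itga6 (-0.01 to 0.19), Itgb1bp1 (-0.15 to 0.40), Itga2 (-0.18 to 0.09), Itgb3bp (-0.105 to 0.045), Itga1 (-0.065 to 0.045), Itga3 (-0.075 to 0.325), Adamts4 (-0.075 to 0.255) and Lama1 (-0.015 to 0.265). The cause of these turns was not tested.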
